A study of Mus musculus with 4 samples.

Results

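The genes described here are 9 that encode laminin chains and the integrin subunits through which epithelial cells bind them, taken by symbol from a table of 22565 protein-coding genes: the laminin chains Lama3, Lama5, Lamb2, Lamb3 and Lamc1, and the integrin subunits Itga3, Itga6, Itgb1 and Itgb4. RNA was measured by rRNA-depleted, stranded sequencing in alveolar epithelial type II (AT2) cells, which make surfactant and renew the alveolar lining, sorted by flow cytometry from 6-month-old mice. Of the 4 libraries, 2 are titled KO and come from mice that the growth protocol calls Fbxo45-cKO, and 2 are of wild type (WT). The genotype field names Fbxo45 for KO replicate 1 and Fbxo46 for KO replicate 2, while both titles read KO. The sources used here name neither the deleted allele, nor the Cre driver, nor the number of mice behind a library, so p-values reflect a spread between libraries that may be technical.

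Laminins are cross-shaped trimers of an α, a β and a γ chain that polymerise into the basement membrane under every epithelium. The α chain carries the globular domains that cell receptors bind, and it is the chain that limits secretion of the assembled trimer. The α3 chain joins β3 in the laminin of firm epithelial attachment, and α5 joins β1 or β2 and γ1 in the main laminin of the mature alveolar wall. Integrins are receptors of an α and a β subunit: α3 pairs with β1, while α6 pairs with β1 or, where it is made, with β4, whose long tail links to keratin in hemidesmosomes.

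The libraries held 9507423 and 7066419 recovered fragments for KO replicates 1 and 2, and 4167117 and 8200167 for WT replicates 1 and 2. The 11 AT2 markers summed to 82996 and 117591 FPKM in the KO libraries and to 131462 and 125182 FPKM in the WT libraries (FPKM, which divides a gene's fragments by transcript length and library size, is the authors' unit and the only scale on which levels of different genes are compared here). Most of each sum was Sftpc, at 54458 and 87684 FPKM in KO and 101544 and 94984 FPKM in WT. Sftpb, Sftpd and Nkx2-1 were also lower in both KO libraries than in both WT libraries on FPKM, and Lpcat1 was higher. Sftpa1, Abca3, Lamp3, Slc34a2, Etv5 and Napsa overlapped between the groups on FPKM. Markers of other lung epithelial cells were present in every library. The 10 markers of alveolar type I cells summed to 1175 and 828 FPKM in KO and to 987 and 832 FPKM in WT. Ager was the largest part of each sum, at 724 and 428 FPKM in KO and 534 and 407 FPKM in WT. On FPKM, Rtkn2, Pdpn and Clic5 were lower in both KO libraries than in both WT libraries, Cav1 and Akap5 were higher, and the rest overlapped. On the authors' count columns Cav1 was lower instead. The 5 club cell markers summed to 1137 and 812 FPKM in KO and to 1326 and 898 FPKM in WT. The 6 T and NK cell markers and the basal cell keratins Krt5 and Krt14 were at 0 in all 4 libraries. KO replicate 1 stood apart through 8 skeletal muscle markers, which summed to 970 FPKM there, 6.69 FPKM in KO replicate 2, and 0.159 and 9.57 FPKM in WT. Fbxo45 itself overlapped between the groups, with 4.41 and 7.58 FPKM in KO and 4.6 and 5.91 FPKM in WT. So did Fbxo46, with 3.82 and 4.8 FPKM in KO and 4.13 and 3.79 FPKM in WT. KO therefore stands for the label throughout.

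None of the 8 members that reached the filter (1 FPKM in at least 2 libraries) passed the limma test between KO and WT at an adjusted p of 0.05, and Itgb4 was below the filter. Over the whole table limma passed 0 of 11055 genes (0%), and 535 of them (4.84%) were under 0.05 before adjustment. With edgeR, run on fragments recovered from the count columns, 0 of 11705 genes passed (0%) and 372 (3.18%) were under 0.05 before adjustment. DESeq2 on the same fragments passed 7 genes, none of them a member, and 279 were under 0.05 before adjustment. Of the 8 members, Lama3, Lama5 and Lamb2 had both KO values below both WT values on FPKM and again on the authors' count columns. That is 3 of 8 members, where 11.9% of all tested genes were so placed. On FPKM alone it was also 3 of 8 (15.1% of all tested genes), and on counts alone it was 4 of 8, with Lamb3 added (16.4%). Without KO replicate 2, limma passed 134 genes, none of them a member, and without WT replicate 2 it passed 3. The members were chosen with earlier results of these data known.

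The α chains came at very different levels. Lama5, on chromosome 2 (180176373 to 180225859, minus strand, GRCm38), encodes the α5 chain and was at 27.8 and 26.2 FPKM in KO replicates 1 and 2 and at 31.2 FPKM in each WT library. Its level averaged 27 ± 1.14 FPKM in KO and 31.2 ± 0.0378 FPKM in WT (SD, n = 2 each). The KO libraries lay below the WT libraries, which differed little from each other. In bulk RNA of sorted cells, fewer cells that make a chain and less RNA per cell cannot be told apart. The limma log2 difference was -0.20 (SE 0.196, adjusted p = 0.948). On the count columns, which the authors scaled per library, Lama5 stood at 1931 and 2576 in KO and at 3078 and 2858 in WT, and edgeR gave a log2 difference of -0.41 (unadjusted p = 0.0633, adjusted p = 0.999). The difference was larger in counts than in FPKM, and KO replicate 1 was lowest on counts but not on FPKM.

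Lama3, which encodes the α3 chain and lies on chromosome 18, was at 3.41 and 3.96 FPKM in KO replicates 1 and 2 and at 6.28 and 5.02 FPKM in WT replicates 1 and 2. The group means were 3.69 ± 0.392 FPKM in KO and 5.65 ± 0.892 FPKM in WT (SD, n = 2 each), a KO to WT ratio of 0.652. The groups did not overlap, and Lama3 had the most negative difference of the 8 members on both measures. limma gave a log2 difference of -0.50 (SE 0.276, adjusted p = 0.948), and edgeR gave -0.62 (unadjusted p = 0.0229, adjusted p = 0.999). Its count columns held 307 and 354 in KO and 561 and 449 in WT, a ratio of 0.654. The values rest on 416 and 332 fragments in KO and on 323 and 508 fragments in WT.

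The β chains differed from each other. Lamb2, on chromosome 9 (108479736 to 108490530, plus strand), encodes the β2 chain and was at 22 and 25.5 FPKM in KO replicates 1 and 2 and at 35 and 27.3 FPKM in WT replicates 1 and 2. The WT libraries were further apart than the KO libraries, and the nearest KO and WT values were KO replicate 2 and WT replicate 2. The means were 23.7 ± 2.41 FPKM in KO and 31.1 ± 5.4 FPKM in WT (SD, n = 2 each), with a limma log2 difference of -0.37 (SE 0.227, adjusted p = 0.948). The counts, 1070 and 1214 in KO and 1672 and 1308 in WT, gave an edgeR log2 difference of -0.39 (adjusted p = 0.999).

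Lamb3, on chromosome 1 (193207699 to 193343878, plus strand), encodes the β3 chain and had the highest level of the 5 laminin chains among the members. It was at 80.1 and 53.8 FPKM in KO replicates 1 and 2 and at 65.6 and 64.2 FPKM in WT replicates 1 and 2. The KO libraries lay on either side of the WT pair, with means of 66.9 ± 18.6 FPKM in KO and 64.9 ± 0.966 FPKM in WT (SD, n = 2 each) and a limma log2 difference of 0.02 (SE 0.247, adjusted p = 0.995). On counts Lamb3 was placed otherwise, at 2028 and 1842 in KO and 2253 and 2038 in WT, so that KO replicate 1 lay just under the lower WT library and edgeR gave -0.16 (adjusted p = 0.999). The sign of the Lamb3 difference thus depended on the measure, and it was also negative (-0.023) when FPKM was rescaled by median ratios.

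Lamc1, on chromosome 1 (153218922 to 153332786, minus strand), encodes the γ1 chain. It was at 20.2 and 22.5 FPKM in KO replicates 1 and 2 and at 29.7 and 19.8 FPKM in WT replicates 1 and 2. WT replicate 1 stood above the other 3 libraries, which overlapped. The limma log2 difference was -0.18 (SE 0.262, adjusted p = 0.969) and that of edgeR -0.04 (adjusted p = 0.999), with counts of 1236 and 1265 in KO and 1345 and 1214 in WT.

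**Figure D1:**
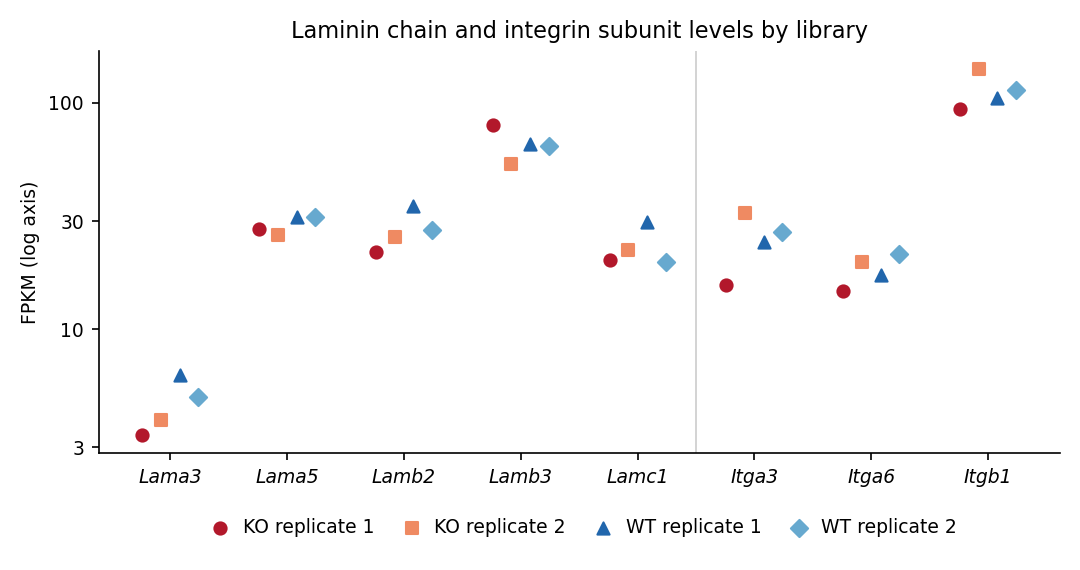
FPKM of 8 of the 9 genes in each of the 4 libraries, on a log axis, with laminin chains left and integrin subunits right of the grey line and KO points left of WT points; Itgb4, at 0.287 FPKM or less, is not drawn. Itgb1 and Lamb3 lead, Lama3 is lowest of those drawn, and the KO points of Lama3, Lama5 and Lamb2 lie below the WT points.

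The 300-base windows around the transcription starts of Lama5 and Lamb2 are shown because these are the 2 members placed lower in KO on both measures for which a promoter was matched. RefSeq promoters on GRCm38.p6 (250 bases before to 50 after the start) were matched for 5 of the 9 members, Itga3, Itgb1, Lama5, Lamb2 and Lamb3, and not for Lama3, Lamc1, Itga6 or Itgb4. Capitals mark GGGCGG, the GC box that Sp-family factors are known to bind, on either strand (CCGCCC where it lies on the other strand). The Lama5 window is chr2:180225810-180226109 (minus strand) and that of Lamb2 is chr9:108479612-108479911 (plus strand).
Lama5: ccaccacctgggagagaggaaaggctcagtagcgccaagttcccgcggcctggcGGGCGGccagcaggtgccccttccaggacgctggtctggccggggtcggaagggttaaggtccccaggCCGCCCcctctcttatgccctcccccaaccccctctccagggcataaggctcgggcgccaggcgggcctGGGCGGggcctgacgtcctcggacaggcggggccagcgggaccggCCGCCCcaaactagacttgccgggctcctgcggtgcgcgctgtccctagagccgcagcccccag
Lamb2: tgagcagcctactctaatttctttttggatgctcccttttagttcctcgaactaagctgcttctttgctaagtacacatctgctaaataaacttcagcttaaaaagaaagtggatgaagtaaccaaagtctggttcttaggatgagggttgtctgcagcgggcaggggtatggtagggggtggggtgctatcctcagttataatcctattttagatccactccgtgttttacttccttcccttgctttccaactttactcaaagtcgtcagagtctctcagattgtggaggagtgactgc

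The windows of these chains had little in common by this count. That of Lama5 held 4 GC boxes, 24 CpG and 72.7% G and C, while that of Lamb2 held 0 GC boxes, 4 CpG and 44% G and C. Over 32851 such windows of all genes, 35.7% held GGGCGG and the median G and C content was 52.7%. TATAAA (13.6% of all windows), CACGTG (7.15%), TGANTCA (7.81%, with N any base) and CCAAT (37.4%), each searched on both strands, were found in neither. The Itgb1 window held 1 GC box, the 2 windows of Itga3 held 1 and 3, and the 2 windows of Lamb3 held 0.

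Summed by class, the β chains were more abundant than the α chains in every library. The 5 α chain genes summed to 35.8 and 33.7 FPKM in KO and to 41.2 and 37.9 FPKM in WT. The 3 β chain genes summed to 106.5 and 82.8 FPKM in KO and to 105.8 and 92.6 FPKM in WT, which is 2.98 and 2.46 times the α sum in KO and 2.57 and 2.44 times in WT. Lama5 made up 77.6% and 77.7% of the α chain FPKM in KO and 75.9% and 82.3% in WT, and Lama3 made up 9.52% and 11.8% in KO and 15.3% and 13.3% in WT. These are shares of FPKM, for which the authors' fitted lengths matter as described below.

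Lama3 was low beside Lama5, another α chain, and beside Lamb3, which encodes the β3 chain it joins. The Lama3 to Lama5 ratio of FPKM was 0.123 and 0.151 in KO and 0.201 and 0.161 in WT, and the Lama3 to Lamb3 ratio was 0.0426 and 0.0737 in KO and 0.0958 and 0.0782 in WT. Both FPKM ratios were lower in both KO libraries, with log2 differences of -0.40 and -0.63, and KO replicate 2 was close to WT replicate 2 in both. On the count columns the Lama3 to Lama5 ratio overlapped between the groups, at 0.159 and 0.137 in KO and 0.182 and 0.157 in WT, with a log2 difference of -0.20. That of Lama3 to Lamb3 did not overlap on counts, at 0.151 and 0.192 in KO and 0.249 and 0.22 in WT, with a log2 difference of -0.46. The transcript lengths behind the FPKM of Lama5 and Lamb3 were shorter in KO replicate 1, as described below. No ratio was tested. The Lama5 to Lamc1 ratio (1.38 and 1.17 in KO, 1.05 and 1.58 in WT) and the Lamb3 to Lamb2 ratio (3.63 and 2.11 in KO, 1.88 and 2.35 in WT) overlapped between the groups on FPKM. On counts the Lama5 to Lamc1 ratio did not, at 1.56 and 2.04 in KO and 2.29 and 2.35 in WT.

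Itgb1, the β1 subunit shared by most matrix-binding integrins, had the highest level of the 9 genes. It lies on chromosome 8 (128685654 to 128733200, plus strand) and was at 94.3 and 141 FPKM in KO replicates 1 and 2 and at 105 and 115 FPKM in WT replicates 1 and 2. The KO libraries lay on either side of the WT libraries, with a limma log2 difference of 0.07 (SE 0.25, adjusted p = 0.984). The counts, 3029 and 4490 in KO and 3365 and 3661 in WT, were placed in the same way. The table gives Itgb1 and its neighbour Nrp1 a shared locus, so Itgb1 is uncertain as far as fragments of the pair could be split.

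The α subunits were far below Itgb1: the Itga3 to Itgb1 ratio of FPKM was 0.166 and 0.231 in KO and 0.229 and 0.235 in WT. On counts, which are not per length, that ratio was 0.182 and 0.164 in KO and 0.249 and 0.198 in WT, so the groups overlapped on FPKM and not on counts. Itga3, on chromosome 11 (95044474 to 95076801, minus strand), encodes the α3 subunit; it stood at 15.6 and 32.5 FPKM in KO replicates 1 and 2 and at 24.2 and 27 FPKM in WT replicates 1 and 2. KO replicate 1 was lowest and KO replicate 2 highest, and the KO spread was wide, at 24.1 ± 12 FPKM, against 25.6 ± 1.96 FPKM in WT (SD, n = 2 each). limma gave a log2 difference of -0.17 (SE 0.358, adjusted p = 0.977). On counts KO replicate 2 was no longer highest, with 551 and 735 in KO and 840 and 727 in WT, and edgeR gave -0.30 (adjusted p = 0.999).

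Itga6, on chromosome 2 (71745616 to 71858416, plus strand), encodes the α6 subunit and stood at 14.7 and 19.8 FPKM in KO replicates 1 and 2 and at 17.4 and 21.4 FPKM in WT replicates 1 and 2. The groups overlapped on FPKM and on counts (424 and 610 in KO, 468 and 578 in WT), and the limma log2 difference was -0.17 (SE 0.25, adjusted p = 0.970). Of sampled 100-base stretches of Itga6 transcripts, 4.07% occur in transcripts of other genes, and 0% of those of the other members do. The Itga3 to Itga6 ratio was 1.06 and 1.64 in KO and 1.39 and 1.26 in WT, with the WT libraries inside the KO range on FPKM. KO replicate 1 was the lowest of the 4 libraries in Itga3, Itga6 and Itgb1, and also in Lama3, Lamb2 and, on counts alone, Lama5. The skeletal muscle markers were highest in KO replicate 1, and their part in these values was not tested.

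Itgb4, the hemidesmosomal β4 subunit (chromosome 11, 115974709 to 116008412, plus strand), was barely detected. It had 0 fragments in both KO libraries and 2 and 5 fragments in WT replicates 1 and 2, or 0, 0, 0.11 and 0.287 FPKM. A count of 0 allows up to 3 fragments, which is 0.316 CPM (a share of the recovered fragments) in KO replicate 1 and 0.425 CPM in KO replicate 2. The WT values were 0.48 and 0.61 CPM, above these limits, but they rest on 2 and 5 fragments, and Itgb4 was not tested. Itga6 was thus measured with almost no RNA of β4 beside it, and the hemidesmosomal collagen gene was near 0 too: Col17a1, a collagen that spans the cell membrane there, was at 0.0312 and 0.207 FPKM in KO and at 0.842 and 0 FPKM in WT. Plec, the plakin that β4 binds, was present, at 23.9 and 37 FPKM in KO and 33.3 and 28.8 FPKM in WT. On counts Plec was lower in both KO libraries, at 1972 and 2277 in KO and 3244 and 2835 in WT, as were 16.4% of all tested genes. Its log2 differences were -0.53 in edgeR (unadjusted p = 0.0179, adjusted p = 0.999) and -0.06 in limma. Plec was named after its values were seen, it overlapped between the groups on FPKM, and the table puts it in 1 locus with Parp10.

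The order of levels held at its ends in every library. Itgb1 ranked first, Lamb3 second, Lama3 eighth and Itgb4 ninth of the 9 genes in all 4 libraries. Lama5, Lamb2, Itga3, Lamc1 and Itga6 lay between, at means over the 4 libraries of 29.1, 27.4, 24.8, 23 and 18.3 FPKM. Each of these overlapped its neighbour in range over libraries, so the order of neighbours is not distinguished. The ranges of Lama5 (26.2 to 31.2 FPKM) and Lamb2 (22 to 35 FPKM) lay wholly above that of Itga6 (14.7 to 21.4 FPKM).

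**Figure D2:**
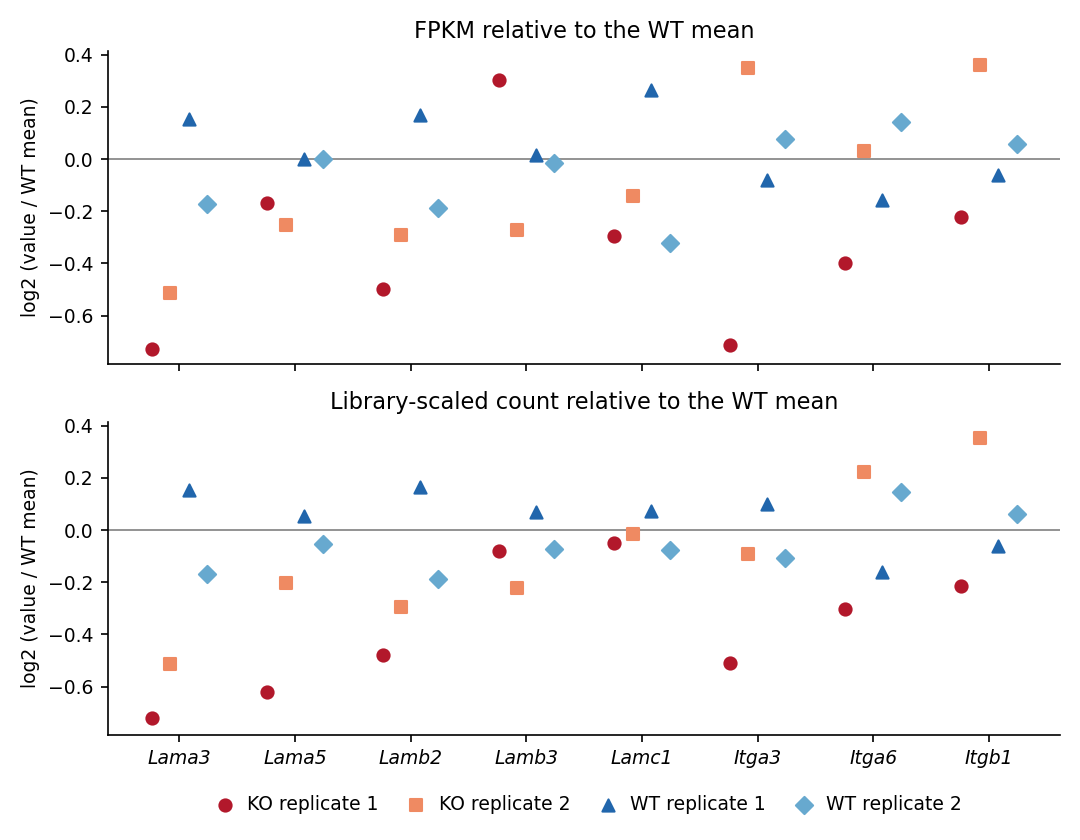
FPKM (top) and the authors' library-scaled counts (bottom) of 8 genes, each as the log2 ratio to the mean of the 2 WT libraries, with KO points left of WT points. Lama3, Lama5 and Lamb2 lie below both WT libraries in both panels, while Lamb3 and Itga3 differ between the panels.

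The transcript length behind an FPKM value was not the same in every library. Dividing a gene's fragments by its FPKM, and scaling on 268 to 317 genes per library with a single annotated transcript, gives the length that the authors' software in effect used. For Fbxo45, annotated at 4179 bases, this gave 4209 and 4233 bases in KO and 4228 and 4235 bases in WT. Lama3 (10576 and 10791 bases in KO, 10757 and 10766 in WT), Lamb2 (5702 and 5770 in KO, 5758 and 5766 in WT) and Itgb1 (3770 and 3845 in KO, 3842 and 3850 in WT) were as even, and close to their longest GENCODE M21 transcripts of 10548, 5629 and 3815 bases.

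For the other members the implied length differed between libraries. That of Lamb3 was 2973 bases in KO replicate 1, against 4140 in KO replicate 2 and 4135 and 3822 in WT, and a shorter length gives a higher FPKM for the same fragments. The Lama5 length was 8160 bases in KO replicate 1, 11902 in KO replicate 2, and 11862 and 11033 in WT. For Itga3 it was 4137 and 2731 bases in KO and 4178 and 3244 in WT, for Lamc1 7191 and 6814 in KO and 5446 and 7384 in WT, and for Itga6 3383 and 3723 in KO and 3243 and 3251 in WT. Whether these shifts follow transcripts in the cells or the fitting of fragments to transcripts was not tested, and the deposited table gives a single row per gene.

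**Figure D3:**
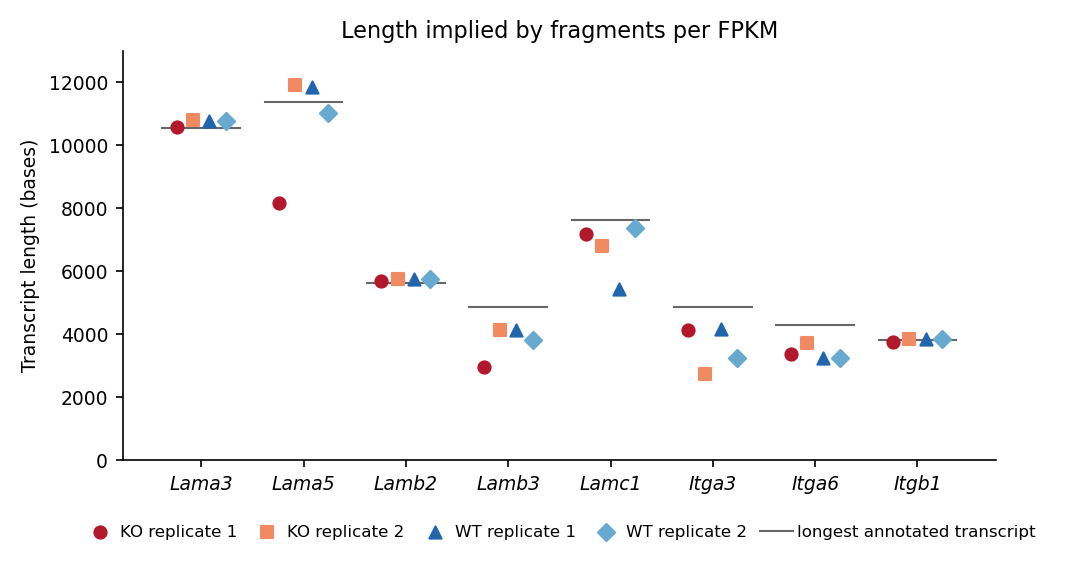
Transcript length in bases implied by fragments per FPKM for 8 members in each library, with a grey line at the longest annotated transcript. Lama3, Lamb2 and Itgb1 are even across libraries, while Lama5 and Lamb3 drop in KO replicate 1, Lamc1 in WT replicate 1 and Itga3 in KO replicate 2 and WT replicate 2.

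As a set, the 8 tested members had 6 negative and 2 positive limma differences with a median of -0.18, beside a median of 0.03 and 45.9% negative over all genes tested. With edgeR 7 were negative, with a median of -0.23, beside 0.02 and 48.1% over all genes. Without KO replicate 1, 4 members had KO below both WT libraries on both measures (Lama3, Lama5, Lamb2 and Lamb3), where 30% of all tested genes did. Without KO replicate 2, 6 did (Lama3, Lama5, Lamb2, Itga3, Itga6 and Itgb1), where 33.9% of all tested genes did. Without WT replicate 1 the count was 3 (17.3% of all tested genes), and without WT replicate 2 it was 4, with Lamc1 added to Lama3, Lama5 and Lamb2 (22.1%). Groups that do not overlap stay apart when a library is left out, so the place of Lama3, Lama5 and Lamb2 in each of these counts, and the sign of their differences with a library left out, were fixed by how they were picked and are no sign of stability. Their differences were also negative in the other 9 alternatives, none past the threshold, but these are no independent check either. The fits with no filter and with the replicate number as a block gave the same differences as the main fit. Adding 0.1 FPKM in place of 1 cannot change the sign for groups without overlap. The fits on counts used counts on which these genes were likewise picked.

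**Figure D4:**
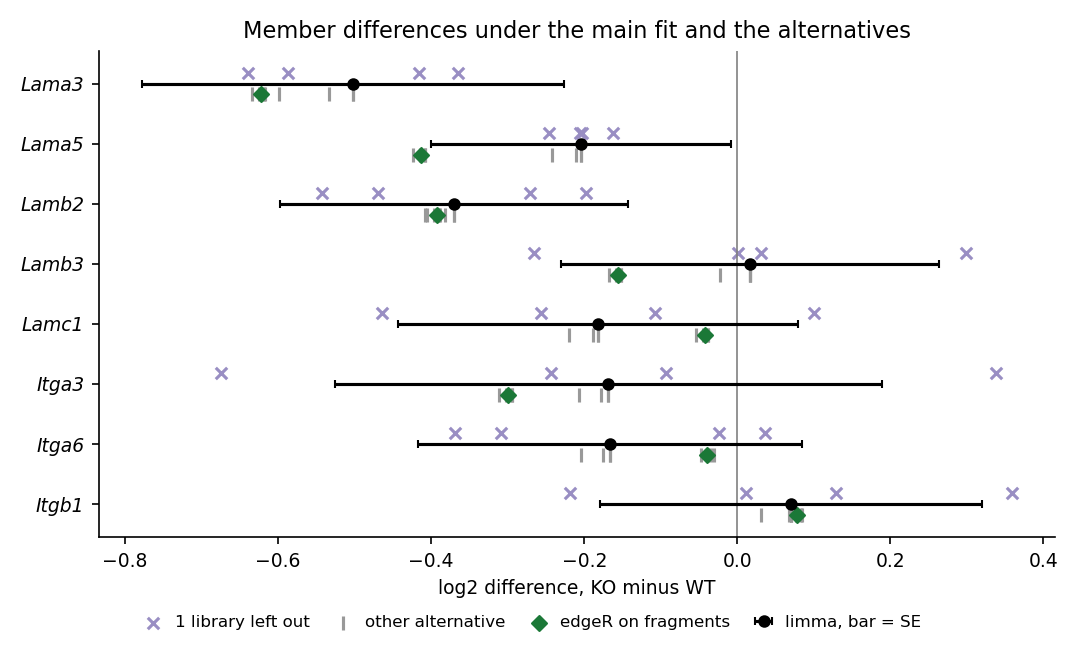
log2 difference, KO minus WT, of each tested member under the main limma fit (black, bar = SE), edgeR on recovered fragments (green), the fits without 1 library (purple crosses) and the other alternatives (grey ticks). Every mark of Lama3, Lama5 and Lamb2 is below 0, and those of the other 5 members fall on both sides.

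Laminin chains that stromal cells are known to make were low. Lama2 was at 2.38 and 2.25 FPKM in KO and 1.35 and 0.801 FPKM in WT, Lama4 at 2.21 and 1.28 FPKM in KO and 2.28 and 0.876 FPKM in WT, and Lamb1 at 4.4 and 3.54 FPKM in KO and 5.27 and 1.09 FPKM in WT. These 3 were lowest in WT replicate 2, as was the sum of the 12 fibroblast and smooth muscle markers, at 45.1 and 37.3 FPKM in KO and 43.9 and 16.7 FPKM in WT; the part of such cells in these values was not tested. Lamc3 was at 0.672 FPKM or less in each library, and Lama1 was listed at 0 in all 4. Of Lama2, Lama4 and Lamb1, the 3 of these chains that were tested, 0 passed in either direction. Their log2 differences were 0.69, 0.12 and 0.45 in limma and 1.13, 0.30 and 0.56 in edgeR. Lama2 was higher in both KO libraries than in both WT libraries on FPKM and on counts (edgeR unadjusted p = 0.0105, adjusted p = 0.999). Its counts were 202 and 189 in KO and 113 and 67.2 in WT. Lama4 and Lamb1 overlapped between the groups on both measures.

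Among other basement membrane genes, 0 of 14 tested passed in either direction, with 5 positive and 9 negative differences and a median of -0.04 in limma and -0.26 in edgeR. Of these 14, 4 had both KO values below both WT values on FPKM and on counts, where 11.9% of all tested genes did. In the other direction, 1 of the 14 had both KO values above both WT values on both measures. No share of all tested genes is given for that direction, so these counts are not compared. Hspg2, which encodes perlecan, the heparan sulfate proteoglycan that ties laminin to collagen IV, was at 6.04 and 6.65 FPKM in KO and 11.7 and 8.69 FPKM in WT, a limma log2 difference of -0.60 (adjusted p = 0.948) and an edgeR difference of -0.69 (unadjusted p = 0.0107, adjusted p = 0.999). Ntn4, a netrin that disrupts laminin networks, was at 0.9 and 0.633 FPKM in KO and at 2.11 and 1.68 FPKM in WT. Both were named for the smallest limma p in this list, and both were lower in both KO libraries than in both WT libraries. Of the most abundant genes of this list, Sparc and Npnt overlapped between the groups on FPKM and on counts: Sparc was at 120.3 and 83.8 FPKM in KO and 103 and 90.1 FPKM in WT, and Npnt, which encodes nephronectin, at 81.7 and 56 FPKM in KO and 76.5 and 64.1 FPKM in WT. Col4a2, a collagen IV chain, was at 69.2 and 36.9 FPKM in KO and 48.5 and 46.6 FPKM in WT, but its counts were lower in both KO libraries, at 2330 and 2030 in KO and 2673 and 2548 in WT, with an edgeR log2 difference of -0.27 (adjusted p = 0.999). Its implied length was 3951 bases in KO replicate 1, against 6649 in KO replicate 2 and 6633 and 6589 in WT, and it is listed in 1 locus with Col4a1.

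Of the other laminin receptors, Sdc4, Sdc1 and Bcam were above Itgb1 in each library. The syndecan Sdc4 was at 411 and 302 FPKM in KO and at 271 and 259 FPKM in WT, but its edgeR log2 difference was 4.3e-05 against 0.41 in limma. The syndecan Sdc1 was at 240.3 and 219 FPKM in KO and 249 FPKM in each WT library. Bcam, a receptor of the α5 chain, was at 139 and 168 FPKM in KO and 185 and 168 FPKM in WT. Of the 5 genes tested 0 passed, with 2 positive and 3 negative differences and a median of -0.12 in limma and 4.3e-05 in edgeR. Of 9 other integrin subunits tested 0 passed, with 7 positive and 2 negative differences and a median of 0.16 in limma and 0.15 in edgeR. Itga9 was at 224 and 103 FPKM in KO and 131 and 126 FPKM in WT. Its implied length was 3161 bases in KO replicate 1, against 6428 in KO replicate 2 and 5047 and 4679 in WT. The Itga9 counts were 6035 and 5499 in KO and 5496 and 4878 in WT. Itga7 was at 25.5 and 38.9 FPKM in KO and 29.4 and 30.3 FPKM in WT, and Itgav at 28.8 and 26.7 FPKM in KO and 25.9 and 23.6 FPKM in WT. Itgb5 was at 4.63 and 3.77 FPKM in KO and 3.48 and 2.22 FPKM in WT, and Itga8 at 6.12 and 4.36 FPKM in KO and 5.1 and 1.55 FPKM in WT.

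Proteins that sit beside or under these integrins did not pass either. Of 6 tested genes of hemidesmosome and tetraspanin partners 0 passed, with 2 positive and 4 negative differences and a median of -0.08 in limma and -0.19 in edgeR. The tetraspanin Cd151, which binds α3β1 and α6β1, was at 31.4 and 43.9 FPKM in KO and 45.8 and 43.1 FPKM in WT, and Cd9 was at 131 and 254 FPKM in KO and 213 and 181 FPKM in WT. Cd81, a further tetraspanin, was at 103 and 147 FPKM in KO and 145 and 135 FPKM in WT, and the plakin Dst, a linker of β4 to keratin in skin, at 87.4 and 66.5 FPKM in KO and 70.9 and 62.8 FPKM in WT. Cd82, at 80.1 and 59.5 FPKM in KO and 52.5 and 52.8 FPKM in WT, had a limma log2 difference of 0.38 and an edgeR difference of -0.17. Of 18 cytoplasmic linkers 0 passed, with 10 positive and 8 negative differences and a median of 0.02 in limma, and of the other sign, -0.13, in edgeR. Fermt2, which encodes kindlin-2, an activator of β1 integrins, was at 62.7 and 46.6 FPKM in KO and at 28.4 and 38.9 FPKM in WT, with a log2 difference of 0.68 (limma unadjusted p = 0.039, adjusted p = 0.948) and 0.48 in edgeR (unadjusted p = 0.0344, adjusted p = 0.999). Parva, the α-parvin of the integrin-linked kinase complex, was at 91.9 and 56.7 FPKM in KO and 46.9 and 48.8 FPKM in WT. Its log2 difference was 0.59 in limma and 0.24 in edgeR. The implied length of Parva was 2478 bases in KO replicate 1, against 4330 in KO replicate 2 and 4492 and 3936 in WT. Both KO libraries lay above both WT libraries, on FPKM and on counts, for Fermt2 and Parva, which were named for their small limma p. They were the only 2 of the 18 linkers so placed, and no share of all tested genes is given for that direction. Naming genes by a small p favours groups without overlap. Another 4 had both KO values below both WT values on both measures, where 11.9% of all tested genes did. The actin crosslinker Actn4 was at 258 and 74.2 FPKM in KO and 115 and 112 FPKM in WT. Its implied length was 1552 bases in KO replicate 1, against 3261 in KO replicate 2 and 2505 and 2672 in WT. The tensin Tns1 was at 79.4 and 68.2 FPKM in KO and 79.1 and 64.9 FPKM in WT. Of 4 tested proteases that cut laminin or integrin precursors 0 passed, with 2 positive and 2 negative differences and a median of 0.11 in limma and 0.20 in edgeR. Furin, which cleaves the α3 and α6 subunits, was at 39 and 33.3 FPKM in KO and 49 and 40.9 FPKM in WT, and Bmp1, which trims laminin chains, at 9.04 and 26.1 FPKM in KO and 17.5 and 14.5 FPKM in WT. Mmp14 was at 24.6 and 19.9 FPKM in KO and 18.9 and 17.8 FPKM in WT, and Mmp2 at 5.52 and 5.76 FPKM in KO and 5.96 and 1.62 FPKM in WT. The table places Itga7, Cd151 and Actn4 each in 1 locus with a neighbouring gene, and 7.92% of the sampled stretches of Itgb5 occur in other genes, so these values are uncertain.

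**Figure D5:**
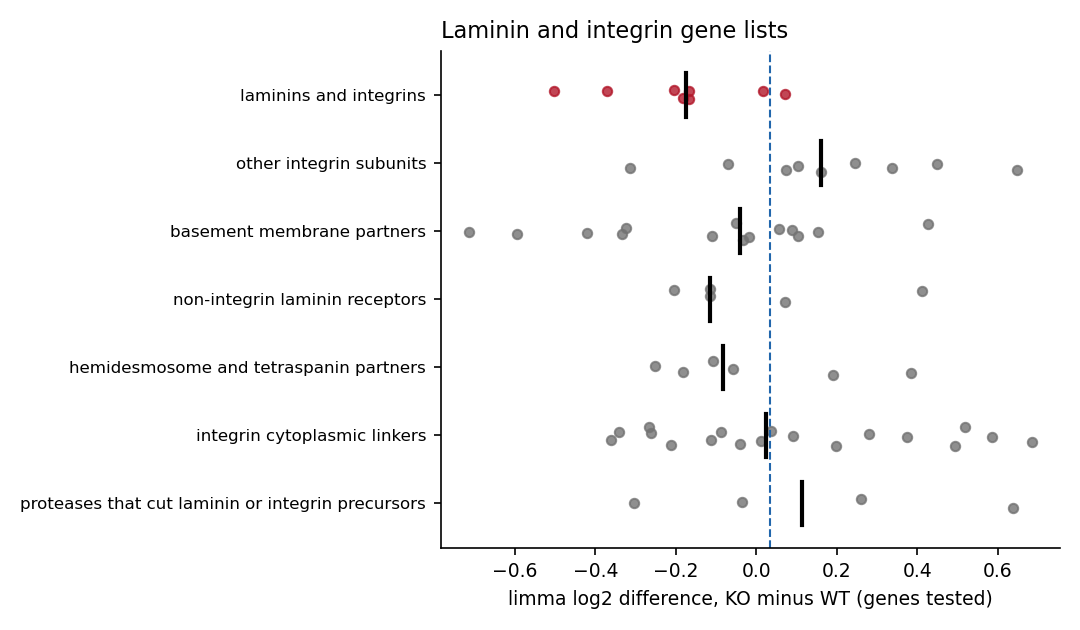
limma log2 differences, KO minus WT, of the tested genes of each list, with a black bar at each list's median and a dashed line at the median of all genes tested (0.03). The 8 laminin and integrin genes (red) have a median of -0.18, and each list drawn spans 0.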

How the data were processed

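The 4 libraries (2 KO, 2 WT) were grouped by sample title. Per the submitters' processing notes, the build was mm10 and the tools were cutadapt 1.9.3, HISAT2 2.0.4, Cufflinks and Cuffdiff 2.2.1, with no settings given in the sources. The authors deposited FPKM values per gene and library, per the file headers. They also deposited estimated counts, scaled per library: after division by the step between a library's low values, 90.9% to 92.6% of positive values were whole within 0.05. These recovered fragments were rounded. Libraries of a group differed by more than sampling noise, with a chi-square per degree of freedom of 46 in KO and 5.07 in WT. On log2(FPKM + 1) the KO libraries correlated at 0.905 with each other and at 0.928 to 0.949 with the WT libraries. The WT libraries correlated at 0.971 with each other.

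KO was compared with WT on log2(FPKM + 1) by two-sided limma-trend (R 4.3.3, limma 3.58.1), over genes at 1 FPKM or more in 2 libraries, Benjamini-Hochberg adjusted over all genes; this scale understates changes of low genes. edgeR 4.0.16 (quasi-likelihood, TMM) and DESeq2 1.42.0 were alternatives, and the limma procedure was tested on simulated data. All 9 members are named; other genes are the 3 highest and the 2 of smallest limma p per list, further laminin chains, and a few named after their values were seen (Col17a1, Krt5, Krt14, Nrp1, Plec, Parp10, Col4a1). Members and lists were chosen with earlier results of these data known. Coordinates are 1-based from GENCODE M21, which holds 96.8% of the table's identifiers; implied lengths used genes with 50 or more fragments and 1 transcript of 2000 bases or more. Floors of 3 counts cover counting error only. A gene of the list of further laminin chains is not reported here, so no median or count of signs is given for that list.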

Additional observations from a re-analysis of the deposited data

How the results depend on the processing

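No member passed the threshold under any of the 13 alternatives; the lowest adjusted p was 0.113, for Itga3 without KO replicate 2. The differences of Lama3, Lama5 and Lamb2 were negative throughout, which their groups without overlap fix for the fits that leave out a library. The other fits used the FPKM or counts on which these genes were picked, so they are no independent check. That of Lamb3 (0.016) was -0.023 with median-ratio scaling, -0.16 with edgeR on the deposited counts, -0.17 there with no filter, -0.15 with DESeq2 on them, and -0.16 with edgeR and -0.15 with DESeq2 on recovered fragments; the last pair was chosen after seeing the data. Leaving out 1 library gave ranges of -0.27 to 0.30 for Lamb3, -0.46 to 0.10 for Lamc1 (positive without WT replicate 1), -0.67 to 0.34 for Itga3 and -0.37 to 0.036 for Itga6 (positive without KO replicate 1), and -0.22 to 0.36 for Itgb1 (negative without KO replicate 2). It gave -0.64 to -0.36 for Lama3, -0.25 to -0.16 for Lama5 and -0.54 to -0.20 for Lamb2. The cause of these shifts was not tested. The genes past the threshold, 0 in the main test, numbered 0 to 134 with 1 library left out (134 without KO replicate 2, 3 without WT replicate 2; a group's single library is taken to vary as the other group does), 2 with edgeR on the deposited counts with no filter, 7 with DESeq2 on the deposited counts and 7 on recovered fragments. With the replicate number as a block, 0 genes passed; deviations of same-numbered libraries correlated at 0.0257 over genes, and nothing in the labels pairs them. Itgb4 was below the filter and has no value here.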

Other observations

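Over the 4 libraries, the tested genes whose log2(FPKM + 1), centred on its mean, lay closest to that of Lamc1 were Pkp3, Slc35e1 and Sema3f, at Euclidean distances of 0.0177, 0.0387 and 0.0529. For Itgb1 they were Slc16a7, Trim33 and Kpna4, at 0.0123, 0.0268 and 0.0351. With 4 libraries many genes lie close: 118 genes were within 0.2 of Lamc1 and 579 within 0.2 of Itgb1.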
